A study of Macaca mulatta with 80 samples.

Results

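The subiculum is the field of the hippocampal formation that lies beyond CA1 and sends much of the output of the hippocampus to the rest of the brain. This account covers its change in gene expression between 6 months of age and adulthood in the rhesus monkey. The members are the 8 arrays whose source label names the subiculum (Sub) with an age of 6 months (4 arrays) or adult (4 arrays), out of 80 arrays in the series and 16 from the subiculum. All animals were male Macaca mulatta with no treatment or genotype named beyond the terminal anaesthesia, and 4 animals stood at each of 4 ages: newborn (1 day), 6 months, 1 year and adult (6 to 12 years). Each region of each animal was hybridised to an array of its own, so the 4 arrays of an age are 4 animals. The subiculum was cut by hand from the middle of its width, through every layer, at the level of the hippocampal body. The tissue therefore holds neurons, glia and vessels together, and in such samples fewer cells of a type and less RNA per cell cannot be told apart. Arrays are named here by age and by the number in their title, 9 to 12 at 6 months and 1 to 4 in the adult.

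Principal cells of the subiculum are large glutamatergic neurons, many of which fire in bursts and project to the mammillary bodies, nucleus accumbens and cortex. After infancy the hippocampal formation is known to lose transcripts of growing and migrating neurons, to complete its myelin and perineuronal matrix, and to settle the receptors and channels of its mature circuits. Serotonin from the raphe nuclei reaches the region through several receptors, of which HTR2C is coupled to phospholipase C. HTR2C is also a well known transcript of the choroid plexus, the secretory epithelium that lies close to the hippocampus.

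Values are log2 signals after quantile normalization of all 80 arrays, and a difference of 1 is a doubling of the signal. A signal belongs to its own probe set, so it is compared between arrays and never between genes. Changes given for a gene are those of its brightest probe set, and for many genes the other probe sets did not share their size. The array was designed for human transcripts. A gene was called changed at an adjusted p under 0.05 in limma, with Benjamini-Hochberg adjustment over all 19775 genes, and errors given as SE are those of the limma contrast.

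Between 6 months and adulthood the largest changes were a rise of the serotonin receptor gene HTR2C and a fall of CTXN1, the gene of cortexin 1, a small membrane protein of cortical neurons. HTR2C rose by 2.41 on the log2 scale and CTXN1 fell by 2.5. Among the genes that rose with HTR2C were SPP1, the secreted phosphoprotein osteopontin, and VAMP1, a synaptobrevin of synaptic vesicles. Those that fell included the neuropeptide gene NTS, the young-neuron transcription factor SOX4 and the matrix gene TNC. In all 436 of 19775 genes were called (2.2%), 139 higher (0.703%) and 297 lower (1.5%) in the adult, while the median change over all genes was 0.0069. Those shares are the background for every gene list below. At them a list of the sizes used here would often hold no call, and a lone call does not set a list apart. Calls were 31.9% higher in this setting, 17.9% with the values as deposited and 14% with each array centred on its median, so the balance of rises and falls depends on the scaling.

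Adult number 4 stood apart from the other arrays of the region. Its log2 ratio of the 3' to the 5' control probe sets of GAPDH, which is higher where long RNA is lost, was 2.72, against 1.24, 1.27 and 1.18 in adults 1, 2 and 3 and 1.38, 1.37, 1.47 and 1.55 in 6-month animals 9 to 12. Its median correlation with the other subicular arrays was 0.959, against 0.976 to 0.99 for the rest. The actin ratio was also highest there, at 4.55 against 3.25 to 4.01. With all 8 arrays the GAPDH ratio differed by 0.16 between the ages (exact permutation test, two-sided p = 1). Without number 4 the 3 adults all lay below the 4 younger animals, by 0.21 on average (exact permutation test, two-sided p = 0.0571, the smallest p that 3 against 4 can give). The ratio thus goes with age among those 7 arrays, and ratio and age cannot be told apart there.

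Without adult number 4, 391 genes were called (1.98%), 129 higher (0.652%) and 262 lower (1.32%), and 291 genes passed in both fits, 88 higher and 203 lower. Of the younger arrays 3 moved the count more than adult 4 did. Calls numbered 137 without 6-month number 10, 170 without number 11 and 101 without number 12, against 444 without number 9. Leaving out adult number 1 raised the count to 767. Across the 8 fits that each left out 1 of the arrays compared, 87 genes stayed called with the same direction, 23 higher and 64 lower. HTR2C, SPP1, VAMP1, RSF1, MYLK, PLEKHA2, ATP8B1, NQO1, CLDND1, CTXN1, SOX4, TNC, TTC9B, DBP, EVL, GUK1, ARC, NREP, CCDC80 and FKBP5 were among those 87. In the gene groups that follow, each further member of a list that is given as a rise or a fall over this interval lost its call in 1 or more of the 8 fits, most often without 6-month number 10, 11 or 12. When only the 8 arrays compared set the spread, 28 genes were called, HTR2C, SPP1, NQO1, CLDND1, CTXN1, SOX4, TNC, CCDC80 and FKBP5 among them. With the GAPDH ratio as a covariate 869 genes were called with all arrays, but only SOX4 and BAMBI, an inhibitor of TGF-beta signalling, without adult 4.

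**Figure D1:**
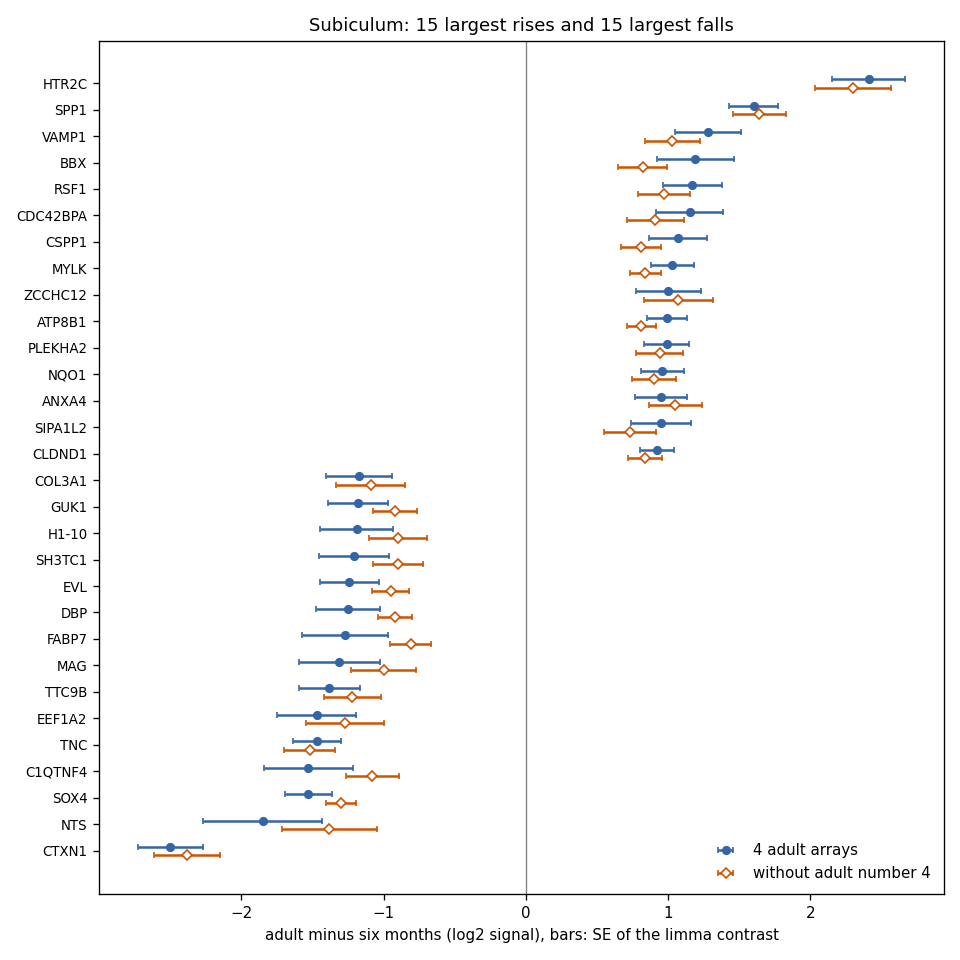
Change from 6 months to adult in the subiculum (log2 signal, horizontal axis) for the 15 largest rises and 15 largest falls that met the naming rule, with all 4 adult arrays (filled circles) and without adult number 4 (open diamonds). Bars are the SE of the limma contrast. Every change keeps its sign without number 4, from 2.30 for HTR2C to −2.38 for CTXN1, and C1QTNF4, FABP7 and NTS move closer to 0.

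HTR2C read 6.72, 5.13, 6.32 and 5.99 in 6-month animals 9 to 12, and 8.50, 8.56, 7.97 and 8.78 in adults 1 to 4. All 4 adults lay above all 4 younger animals, of which number 10 was lowest. The rise was 2.41 (SE 0.257, 5.33-fold, limma adjusted p = 0.000149), and 2.30 without adult 4 (limma adjusted p = 0.000304). The mean was higher at each later age, at 5.15 in newborns, 6.04 at 6 months, 7.39 at 1 year and 8.45 in adults. The gain after 1 year was 1.07 (limma adjusted p = 0.0363), and that between 6 months and 1 year was 1.35 and was not called. The receptor's other probe set was dim, at 4.38 and 4.44 at the 2 ages.

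Markers of the choroid plexus were measured on the same arrays. In limma 0 of 15 measured members of that list passed (1 had an unadjusted p under 0.05), their median change was −0.022, and their mean signal spanned 5.53 to 5.65 at 6 months and 5.51 to 5.67 in adults. TTR, the transthyretin gene that choroid plexus makes in large amounts, read 6.54, 6.68, 6.42 and 5.82 at 6 months and 6.09, 6.00, 6.22 and 8.03 in adults 1 to 4. TTR was highest in adult 4. KCNJ13 and KL, further genes of that epithelium, stayed between 4.27 and 4.70 on all 8 arrays, and FOLR1, a folate receptor made there, spanned 7.57 to 8.50 at 6 months and 7.40 to 8.32 in adults. The part of choroid plexus tissue in the HTR2C signal was not tested.

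HTR2C was the only called member among the 14 measured serotonin receptor genes. At the share called over all genes, a list of that size often holds no call. The 13 others had changes from −0.24 (HTR1E) to 0.24 (HTR6), and the list median was 0.041 beside 0.0069 over all genes. HTR4, which couples to cyclic AMP, was at 0.19 (7.18 to 7.39 at 6 months and 7.37 to 7.54 in adults; limma adjusted p = 0.259). HTR6, which also couples to cyclic AMP, spanned 6.90 to 7.41 and 7.23 to 7.65 (limma adjusted p = 0.305). HTR1E went the other way, with 6.46 to 6.88 against 6.14 to 6.77 (limma adjusted p = 0.333). In each of these 3 genes the age groups overlapped.

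The remaining serotonin receptors had smaller changes. HTR7 was at 0.11, HTR3B at 0.090, HTR3A at 0.066, HTR5A at 0.052, HTR1F at 0.030, HTR1B at 0.029 and HTR1D at 0.019. Below 0 lay HTR1A at −0.022, HTR2A at −0.023 and HTR2B at −0.077. HTR2A, the closest relative of HTR2C in this list with HTR2B, spanned 4.86 to 5.49 at 6 months and 4.68 to 5.93 in adults. None of these 10 receptors had age groups that did not overlap. The median level of the serotonin receptor list lay below the median of all gene means at both ages. Whether dim signal hid changes in these receptors was not tested.

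SPP1 read 8.73, 8.48, 8.20 and 8.47 at 6 months and 9.71, 10.07, 10.57 and 9.94 in adults. The groups did not overlap, and adult 4 was in the middle of its group. The rise of 1.6 (SE 0.174, 3.03-fold, limma adjusted p = 0.000149) came after a rise of 1.05 between birth and 6 months (limma adjusted p = 0.00321), a step at which 601 of 19775 genes were called (3.04%), 301 higher (1.52%) and 300 lower (1.52%). SPP1 is made by microglia among other cells, and it was the only called gene of 19 in the microglia list. The list mean, which includes SPP1 and its rise, spanned 6.70 to 6.71 at 6 months and 6.58 to 6.73 in adults. The microglial genes CX3CR1, P2RY12, CSF1R and AIF1 had changes of −0.37, −0.44, −0.38 and −0.12, none called. The other probe set of SPP1 was dim (5.12 and 4.88) and was at −0.23.

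VAMP1 read 7.34, 7.71, 7.61 and 7.61 at 6 months and 8.86, 8.96, 7.97 and 9.60 in adults. All adults were higher, with adult 3 closest to the younger animals and adult 4 highest. The rise of 1.28 (SE 0.232, limma adjusted p = 0.0103) was 1.03 without adult 4 (limma adjusted p = 0.00969). NQO1, a quinone reductase of the oxidative stress response, rose by 0.96 (SE 0.148, limma adjusted p = 0.00342), from 6.21, 6.41, 6.77 and 6.47 to 7.23, 7.36, 7.49 and 7.62. Adult values of NQO1 were close to each other and all above the younger ones. Other probe sets of VAMP1 and NQO1 did not show rises of that size.

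MYLK, CDC42BPA, RSF1 and BBX were also among the largest rises. MYLK, which phosphorylates myosin light chains, rose by 1.03 (SE 0.15, limma adjusted p = 0.00236), and its 1-year mean of 7.33 was level with the 7.34 of 6 months. CDC42BPA, a kinase of the actin cytoskeleton, rose by 1.15 (limma adjusted p = 0.0194). RSF1, a chromatin remodelling factor, rose by 1.17 (SE 0.209, limma adjusted p = 0.00909), and BBX, which carries an HMG box, by 1.19 (limma adjusted p = 0.030). Adult 4 was the highest array for all 4 genes, most clearly for BBX, where it read 9.22 against 7.44, 7.92 and 7.88 in the other adults. Without it BBX was at 0.82 and CDC42BPA at 0.91, both still called. The other probe sets of RSF1 (5, from −0.17 to 0.15) and of CDC42BPA (4, from −0.12 to 0.20) did not show rises of that size.

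The other large rises were close to 1 in size. PLEKHA2, which binds phosphoinositides, rose by 0.99 (SE 0.159, limma adjusted p = 0.00434), ATP8B1, a phospholipid flippase, by 0.99 (SE 0.141, limma adjusted p = 0.00194), and ANXA4, an annexin, by 0.95. CLDND1, which has a claudin domain, rose by 0.92 (SE 0.119, limma adjusted p = 0.00114). Its 6-month arrays lay between 6.18 and 6.26 and its adults between 6.80 and 7.37. The centrosome gene CSPP1 rose by 1.07, ZCCHC12 by 1.0 and SIPA1L2, a regulator of the GTPase Rap, by 0.95. These last 3 and ANXA4, BBX and CDC42BPA lost their calls without 6-month number 12, and the highest limma adjusted p of any of them was 0.10 over the fits that left out 1 array. Other probe sets of CSPP1, PLEKHA2, ANXA4, CLDND1 and SIPA1L2 showed no rise close to 1, and that of ATP8B1 was lower in adults.

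CTXN1 read 9.40, 10.17, 10.03 and 9.80 at 6 months and 7.95, 7.75, 6.71 and 6.99 in adults. No adult came near the younger animals. It fell by 2.5 (SE 0.228, limma adjusted p = 6.77e-05), which is 5.65-fold, and was at −2.38 without adult 4 (limma adjusted p = 5.45e-05). Signal in newborns had been as low as in adults: the means were 7.71 at birth, 9.85 at 6 months, 9.89 at 1 year and 7.35 in adults. The gene therefore rose by 2.14 over the first 6 months (limma adjusted p = 4.76e-05) and fell by 2.54 after 1 year (limma adjusted p = 5.21e-05). CTXN1 has no other probe set among those used.

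NTS, which codes for the peptide neurotensin and marks subsets of subicular neurons, read 8.88, 9.01, 8.33 and 7.69 at 6 months and 7.25, 7.04, 7.0 and 5.2 in adults. The groups did not overlap, but adult 4 was far below the other 3 adults. NTS fell by 1.85 (SE 0.417, limma adjusted p = 0.0296) and was at −1.38 without adult 4 (limma adjusted p = 0.0405). It lost its call without 6-month number 9, 10 or 11, with limma adjusted p up to 0.0892. Newborns averaged 8.89 and 1-year animals 8.24.

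**Figure D2:**
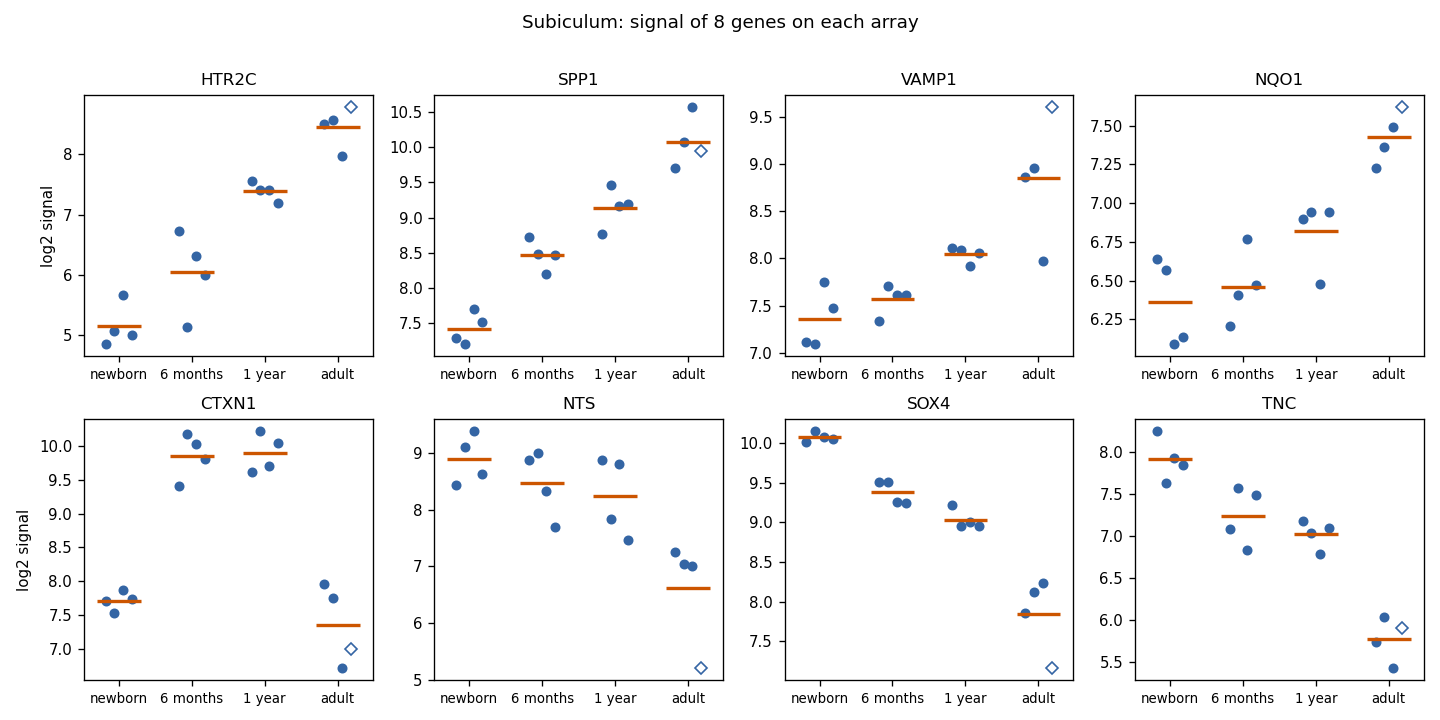
Log2 signal of 8 genes on each of the 16 subicular arrays, grouped by age (horizontal axis). Points are single animals, the open diamond is adult number 4 and bars are group means of 4. The means of HTR2C and SPP1 are higher at each later age, CTXN1 is high at 6 months and 1 year alone (means of 9.85 and 9.89), and adult 4 lies apart in NTS at 5.2.

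In the list of immature neurons and neurite growth, 5 of 28 measured members fell and 0 rose, beside 1.5% lower and 0.703% higher over all genes. The list median was −0.24 beside 0.0069, and 22 members had a change below 0, as did 9525 of all 19775 genes. Their mean signal spanned 9.09 to 9.20 at 6 months and 8.69 to 8.92 in adults. Without adult 4, 6 members fell, the list median was −0.15 and the adults spanned 8.82 to 8.92. The groups stayed apart in the list mean with and without that array.

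SOX4 was the clearest of them, with 9.51, 9.51, 9.25 and 9.24 at 6 months and 7.86, 8.12, 8.24 and 7.16 in adults. Adult 4 was lowest, and the other 3 adults were close to each other. SOX4 fell by 1.53 (SE 0.165, limma adjusted p = 0.000149) and was at −1.30 without adult 4 (limma adjusted p = 7.13e-06). NREP, a protein of neuronal regeneration, fell by 1.14 (limma adjusted p = 0.00291), from 10.38, 10.55, 10.22 and 10.43 to 8.88, 9.08, 10.01 and 9.05. Here adult 3 was the array nearest to the younger group.

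MARCKSL1, a binder of actin and calmodulin in growing neurites, fell by 0.85 (limma adjusted p = 0.0163), and TUBB3, the neuronal beta tubulin, by 0.79 (limma adjusted p = 0.0281). MARCKSL1 lost its call without 6-month number 10 or 12 (limma adjusted p up to 0.0701), and TUBB3 without 10, 11 or 12 (up to 0.0862). SOX11, which acts with SOX4 in newly formed neurons, fell by 0.70 (limma adjusted p = 0.034) and was at −0.61 without adult 4 (limma adjusted p = 0.0685). It was also lost without any 1 of the 6-month arrays. DPYSL3 and GAP43, both of growth cones, were called only without adult 4, at −0.60 (limma adjusted p = 0.00959) and −0.51 (limma adjusted p = 0.0402). With all arrays they were at −0.40 and −0.42. DCX, the microtubule protein of migrating neurons, was at 0.40 (limma adjusted p = 0.136).

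Matrix genes moved in both directions, 3 higher and 3 lower of 27, beside 0.703% and 1.5% over all genes, with a list median of 0.016. TNC, the developmental glycoprotein tenascin-C, read 7.08, 7.57, 6.83 and 7.49 at 6 months and 5.73, 6.03, 5.42 and 5.90 in adults. The adult values were all lower by a wide margin, and number 4 was within its group. TNC fell by 1.47 (SE 0.168, limma adjusted p = 0.000221). CCDC80 fell by 0.76 (limma adjusted p = 0.00172). Other probe sets of TNC and CCDC80 did not show falls of that size. HAPLN1, the link protein of hyaluronan, fell by 0.49 (limma adjusted p = 0.0392), but was at −0.43 without adult 4 (limma adjusted p = 0.0806). Beside SPP1 the proteoglycan genes SPOCK3 (0.87, limma adjusted p = 0.0125) and VCAN (0.83, limma adjusted p = 0.0317) rose. SPOCK3 and VCAN each had 1 or more adults within the range of the younger group.

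Among the collagens of meninges and fibroblasts only COL3A1 was called, with a fall of 1.17 (SE 0.231, limma adjusted p = 0.0161). It read 5.73, 6.72, 5.80 and 6.31 at 6 months and 5.03, 4.84, 5.27 and 4.76 in adults. Its other probe sets either fell less or stayed level. COL1A1 and COL5A2 had changes above 0, and COL1A2, COL5A1 and COL6A3 below 0, none called. COL3A1 was the 1 called member of 19, and the list median was −0.11. A lone call does not set a list of that size apart from all genes. The list mean spanned 6.34 to 6.61 at 6 months and 6.27 to 6.33 in adults, so it just failed to overlap as well, and the part of meningeal tissue in these falls was not tested.

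Immediate early genes, a class induced within minutes of neuronal firing, had calls in 1 direction. Of 19 members 3 fell and 0 rose, beside 1.5% and 0.703% over all genes. The list median was −0.23 beside 0.0069, and 16 had a change below 0, as did 9525 of all 19775 genes. ARC, whose protein acts at synapses in plasticity, read 6.81, 6.90, 6.83 and 7.56 at 6 months and 6.18, 6.07, 6.08 and 5.75 in adults. The adults were all lower, and 6-month number 12 stood above its group. ARC fell by 1.0 (SE 0.165, limma adjusted p = 0.00526), EGR4, a zinc finger factor, by 1.14 (limma adjusted p = 0.0163) and FOS, a subunit of AP-1, by 0.99 (limma adjusted p = 0.0277). FOS read 5.89, 6.31, 6.80 and 5.36 in adults against 6.98, 7.06, 6.88 and 7.41, so adult 3 was close to the younger animals. Without adult 4 all 3 were called, at −0.91, −1.14 and −0.75. FOS lost its call without 6-month number 10, 11 or 12 (limma adjusted p up to 0.106) and EGR4 without 11 or 12 (up to 0.055), while ARC was called in each of the 8 fits. BDNF, a neurotrophin that activity also induces, was at −0.64 (limma adjusted p = 0.0508).

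Genes of synaptic release and of the postsynaptic density were mostly not called. In the vesicle list VAMP1 rose and CPLX1, the complexin that clamps fusion, fell by 0.93 (limma adjusted p = 0.0434) of 26 measured, with a list median of −0.23. CPLX1 was at −0.67 without adult 4 (limma adjusted p = 0.0695). In the postsynaptic list ARC and the scaffold PPP1R9B (−0.75, limma adjusted p = 0.0335) fell of 19. PPP1R9B was at −0.56 without adult 4 (limma adjusted p = 0.056). The counts of calls in the vesicle and postsynaptic lists were not tested against the shares over all genes. NRGN, neurogranin, was at −1.17 (limma adjusted p = 0.0615), with values from 8.88 to 10.08 at 6 months and from 7.44 to 9.21 in adults.

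Receptor and channel genes were largely without calls, as lists of their size often are at the share called over all genes. In limma 0 of 22 glutamate receptor genes were called (6 had an unadjusted p under 0.05), with changes from −0.30 to 0.36. Likewise 0 of 14 GABA receptor genes (2 with an unadjusted p under 0.05), 0 of 11 sodium channel genes (2) and 0 of 27 calcium channel and calcium-binding genes (5) were called. The share with an unadjusted p under 0.05 was above that of all genes in the glutamate, sodium and calcium lists. It was below it in the GABA list. These differences in share were not tested, so the lack of calls does not show that the lists were unchanged. GABBR1, a subunit of the metabotropic GABA receptor, had the largest change of these at −1.03 (limma adjusted p = 0.0814). Of 34 potassium channel genes KCNC4 fell by 0.71 (limma adjusted p = 0.0304) and KCNN1, a calcium-activated channel, by 0.58 (limma adjusted p = 0.030). Neither was called without adult 4 (limma adjusted p = 0.0619 and 0.0544). The share of falls among the potassium channel genes was above that over all genes, a difference that was not tested. KCNH3, a channel of the ether-a-go-go family, and KCNK12, of the tandem-pore family, are in no list and were chosen after their values were seen. KCNH3 fell by 0.96 (limma adjusted p = 0.00434; 0.00164 without adult 4) and KCNK12 by 0.95 (limma adjusted p = 0.00774; 0.0121 without adult 4), and both were among the 87 genes called in each of the 8 fits. The adrenergic receptor ADRA1D fell by 0.60 (limma adjusted p = 0.0308; 0.0613 without adult 4), 1 of 25 in its list.

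Markers of subicular neurons gave both the largest rise and one of the largest falls, HTR2C and NTS. The POU-domain factor POU3F1 also fell, by 0.88 (limma adjusted p = 0.0467; 0.0653 without adult 4), and the list of 17 had a median of −0.037. The label of the tissue was set against the same list: the subiculum had the highest mean of the 5 regions for 8 of 17 markers at 6 months and for 8 of 17 in adults. NTS, TLE4, NR4A2, ETV1, TSHZ2 and CNTN6 were among those at both ages. The list mean was 7.71 and 7.64 in the subiculum, against 7.43 and 7.22 in CA1, the region next to it, and 6.60 and 6.50 in the dentate gyrus (DG). HTR2C was among the 8 in adults only, so the list itself is not the same description of the region at each age.

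Among neuropeptides NTS was the 1 called of 21, with a list median of −0.19 and 16 members below 0. That count is too small to set the list apart from all genes. CRH, corticotropin-releasing hormone, was at −0.64 (limma adjusted p = 0.0739) and was called without adult 4, at −0.76 (limma adjusted p = 0.0412). Interneuron markers had 0 of 21 called in limma (5 with an unadjusted p under 0.05). RELN, the secreted protein reelin, was at 0.79 (limma adjusted p = 0.0913) with adults all above the younger animals, and GAD2 was at 0.42 (limma adjusted p = 0.102).

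Of the neurofilament genes of thick mature axons NEFH was called. NEFH, the heavy chain, rose by 0.84 (limma adjusted p = 0.0197), from 8.63, 8.88, 9.17 and 8.88 to 9.67, 9.30, 9.66 and 10.31. NEFM, the medium chain, read 11.16, 11.18, 11.64 and 10.33 in adults against 10.27 to 10.49. Adult 4 alone lay within the range of the younger animals, and NEFM was at 0.67 with it (limma adjusted p = 0.0584) and rose by 0.92 without it (limma adjusted p = 0.000343). In the whole list of 21 mature cytoskeleton genes 1 rose, with a median of −0.029.

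Myelin genes showed no common rise after 6 months. Of 32 members 0 rose and 1 fell (4 and 9 at an unadjusted p under 0.05 in limma), and the list median was −0.13. The share with an unadjusted p under 0.05 was above that of all genes, which was not tested. In the comparison with DG and entorhinal cortex given below, 4 of the 32 had a called more negative change in the subiculum and 0 a more positive one. No other list had as many in that comparison. MAG, 1 of the 4, lost that call without the subicular adult 4. The list mean spanned 7.54 to 7.68 at 6 months and 7.41 to 7.50 in adults. MAG, the myelin-associated glycoprotein, read 8.69, 9.33, 8.76 and 9.43 at 6 months and 8.53, 7.90, 7.73 and 6.79 in adults. Adult 1 was close to the younger animals and adult 4 was lowest. MAG fell by 1.31 (SE 0.284, limma adjusted p = 0.0245), and was at −1.0 without adult 4 (limma adjusted p = 0.0336). Its other probe set was at −0.01. Without adult 4 the myelin enzymes CNP (−0.81, limma adjusted p = 0.0296) and FA2H (−0.63, limma adjusted p = 0.0128) were called lower as well. CNDP1, an enzyme of oligodendrocytes, was at 0.85 (limma adjusted p = 0.0648).

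Astrocyte genes had 1 call of 21. FABP7, a lipid carrier of radial glia and young astrocytes, read 9.33, 9.58, 9.30 and 9.88 at 6 months and 8.52, 8.89, 8.72 and 6.88 in adults. It fell by 1.27 (limma adjusted p = 0.0362), and adult 4 was far below the other adults. Without that array the change was −0.81 (limma adjusted p = 0.00739). ETNPPL, a lipid enzyme of mature astrocytes, was at 0.62 (limma adjusted p = 0.129), with adults above the younger animals. Endothelial CDH5 fell by 0.47 (limma adjusted p = 0.0481; 0.103 without adult 4), and IFIT1 of the interferon response rose by 0.75 (limma adjusted p = 0.026).

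Growth factor genes had 3 rises and 1 fall among 28, beside 0.703% and 1.5% over all genes. TGFB2, a ligand of the TGF-beta family, rose by 0.68 (limma adjusted p = 0.0219), FGF1 by 0.73 (limma adjusted p = 0.0254) and IGFBP5, which binds insulin-like growth factors, by 0.73 (limma adjusted p = 0.0277). IGFBP3 fell by 0.39 (limma adjusted p = 0.0231). IGFBP5 was not called without adult 4 (limma adjusted p = 0.0524), and FGF1 not with values as deposited or centred. Each of the 4 lost its call without 6-month number 10 or 12, with limma adjusted p up to 0.0707 for TGFB2, 0.0951 for FGF1, 0.101 for IGFBP5 and 0.0682 for IGFBP3. In the glucocorticoid and clock list FKBP5, a co-chaperone of the glucocorticoid receptor, rose by 0.64 (SE 0.0852, limma adjusted p = 0.00128). Its adults lay between 6.78 and 6.89 and its 6-month animals between 6.10 and 6.41. DBP, an output gene of the circadian clock, fell by 1.25 (limma adjusted p = 0.00909), from 7.59, 7.75, 7.73 and 7.98 to 7.0, 6.94, 6.57 and 5.53. Adult 4 was the lowest, and DBP was at −0.92 without it (limma adjusted p = 0.000794). The gene's other probe set went the other way, from 5.89 to 6.17 (0.29). The hour at which each brain was taken is not given in the sources used here.

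TFRC, the transferrin receptor through which cells take up iron, read 7.86, 7.78, 7.74 and 7.91 at 6 months and 6.65, 6.59, 6.78 and 7.80 in adults. Adult 4 lay at the level of the younger animals, and the other 3 adults were all low. TFRC fell by 0.86 with it (limma adjusted p = 0.0297) and was at −1.15 without it (limma adjusted p = 5.45e-05). Some of the other probe sets of TFRC were lower in adults and others were higher. CAT, catalase, fell by 0.55 (limma adjusted p = 0.0132), while NQO1 and TXNIP rose. TXNIP, the thioredoxin inhibitor, rose by 0.63 (limma adjusted p = 0.0384; 0.0803 without adult 4), and was not called with values as deposited or centred.

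In energy metabolism the glycolytic enzymes PGK1 (−0.49, limma adjusted p = 0.0246) and PKM (−0.90, limma adjusted p = 0.0417) fell of 19, and NDUFS1 of respiratory complex I rose by 0.42 (limma adjusted p = 0.0365) of 24. PKM and NDUFS1 were not called without adult 4 (limma adjusted p = 0.0878 and 0.053), and NDUFS1 not with values as deposited or centred. The counts of calls in these energy lists were not tested against the shares over all genes. In limma 0 of 23 ribosomal protein genes (2 with an unadjusted p under 0.05), 0 of 31 cell cycle genes (8) and 0 of 38 axon guidance genes (6) were called.

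**Figure D3:**
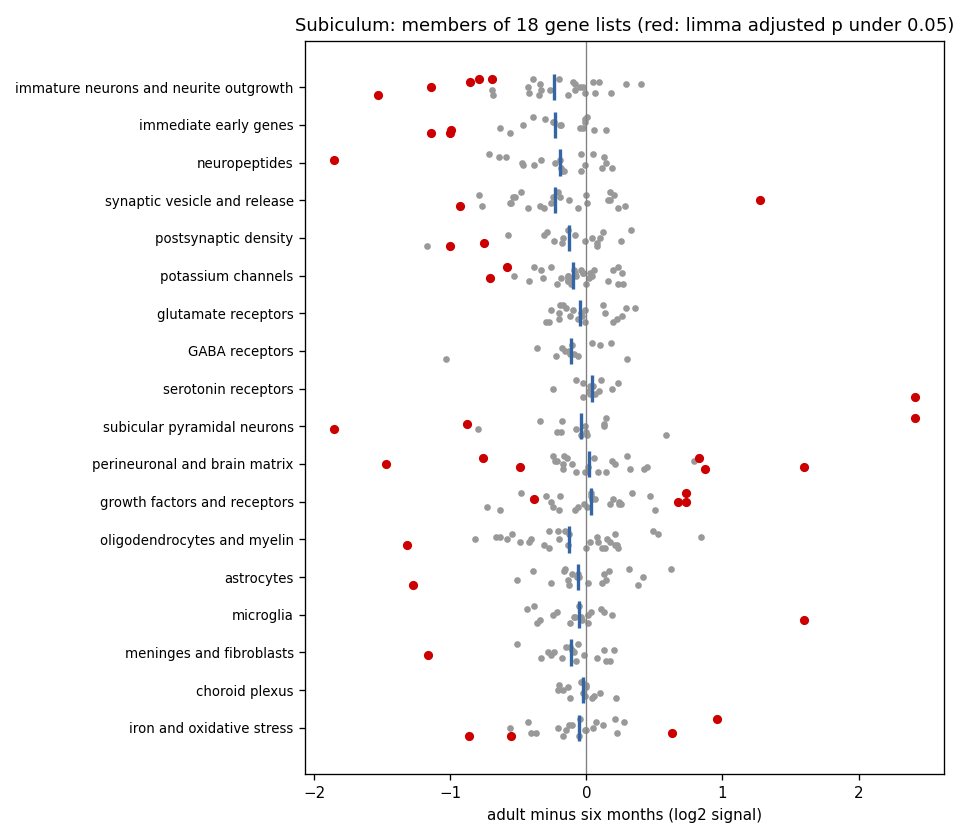
Change from 6 months to adult in the subiculum (log2 signal, horizontal axis) for the measured members of 18 gene lists. Each point is a gene, red where the limma adjusted p was under 0.05, and blue bars are list medians. The immature neuron and immediate early lists have medians of −0.24 and −0.23 and red points to the left alone, while in the serotonin receptor list HTR2C stands by itself at 2.41.

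The remaining large falls belonged to no single list. TTC9B, a tetratricopeptide protein, fell by 1.38 (SE 0.211, limma adjusted p = 0.00328), with 8.82 to 9.71 at 6 months and 7.32 to 8.25 in adults. EEF1A2, the translation elongation factor of neurons and muscle, fell by 1.47 (limma adjusted p = 0.0127). It read 8.20, 8.58, 8.43 and 9.45, then 7.84, 7.67, 6.67 and 6.61. Adults 3 and 4 were the low ones, and newborns had been as low, with a mean of 7.17 before a rise of 1.49 by 6 months (limma adjusted p = 0.00695).

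C1QTNF4, a secreted protein of the C1q and TNF family, fell by 1.53 (limma adjusted p = 0.0195), and was at −1.08 without adult 4, which read 6.84 against 8.20 to 9.0. EVL, an actin regulator, fell by 1.24 (SE 0.210, limma adjusted p = 0.0068), and GUK1, guanylate kinase, by 1.18 (SE 0.210, limma adjusted p = 0.00909). SH3TC1 fell by 1.21 and the linker histone gene H1-10 by 1.19. Other probe sets of TTC9B, EVL, GUK1 and SH3TC1 did not show falls of that size. For EVL, GUK1, SH3TC1 and H1-10 adult 4 was the lowest array and the groups did not overlap. The calls of C1QTNF4, EEF1A2, MAG, FABP7, SH3TC1, H1-10 and COL3A1 were each lost without 6-month number 12, and the highest limma adjusted p of any of them was 0.131 over the fits that left out 1 array.

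Across the genome the adult arrays and the 6-month arrays did not overlap for 1432 of 19775 genes (7.24%), 685 with all adults above (3.46%) and 747 with all adults below (3.78%). Among the 436 called genes 401 had groups that did not overlap. Those genes were called on the same arrays, so that count adds no support to the calls.

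Most calls lay after the first year. From 6 months to 1 year limma called 1 gene of 19775 (0.00506%), RFLNB, while 549 had an unadjusted p under 0.05. RFLNB, a regulator of filamin, rose by 1.16 (SE 0.164, limma adjusted p = 0.0317), from a mean of 5.80 to 6.96, and stood at 6.44 in adults. From 1 year to adult 516 genes were called (2.61%), 170 higher (0.86%) and 346 lower (1.75%). Both steps share arrays with the whole interval, and the difference between their numbers of calls was not tested.

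Single genes differed in when they moved. For MYLK, CLDND1, CTXN1 and TFRC the 1-year mean was within 0.11 of the 6-month mean, so nearly all of the change lay after 1 year. ANXA4 was at 0.60 by 1 year and 0.35 afterwards, SH3TC1 at −0.64 and −0.57, and PLEKHA2 at 0.51 and 0.48. None of those 6 single steps was called. For FOS the 1-year mean was 7.23, level with the 7.08 of 6 months, and it then fell by 1.14 to adulthood (limma adjusted p = 0.014). EGR4 and ARC were at −0.25 and −0.18 over the first step and fell by 0.90 and 0.83 over the second (limma adjusted p = 0.0455 and 0.0155).

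Whether these changes differed from those of other fields was tested against the mean change of DG and entorhinal cortex (EC) over the same ages. That was done in a single limma fit of 48 arrays. CA1 and CA3 stayed out because their GAPDH ratio moved with age, so a difference here is from DG and EC alone. The change differed for 174 of 19775 genes (0.88%), 96 with a more positive change in the subiculum (0.485%) and 78 with a more negative one (0.394%). Without adult array 4 of the subiculum 85 genes differed (0.43%), 42 more positive (0.212%) and 43 more negative (0.217%), of which 64 were also among the 174. Positive differences made up 55.2% of the calls, 28.7% with the values as deposited, 18.7% with arrays centred on their medians and 28.9% without number 1 of the adults in all 3 regions. Of the 436 genes called in the subiculum 73 were also called for the difference.

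HTR2C was at 0.053 in DG and −0.18 in EC, neither called, and its subicular change exceeded their mean by 2.48 (SE 0.297, limma adjusted p = 1.86e-06), or 2.37 without the subicular adult 4 (limma adjusted p = 2.05e-05). In adults the subiculum had the highest mean of HTR2C among the 5 regions, 8.45 ± 0.345 (SD, n = 4), ahead of CA1 at 7.61 ± 0.515, CA3 at 6.62 ± 0.899, EC at 6.61 ± 0.381 and DG at 4.93 ± 0.418. The ranges of subiculum (7.97 to 8.78) and CA1 (6.89 to 8.10) overlapped, and so did those of CA3 and EC. At 6 months the subiculum, at 6.04 ± 0.674, had been below CA1 (7.13 ± 0.606), EC (6.79 ± 0.249) and CA3 (6.18 ± 0.463). The 6-month subicular range of 5.13 to 6.72 overlapped all 3.

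CTXN1 was at −0.45 in DG and −0.32 in EC, and its subicular change differed by −2.11 from their mean (SE 0.222, limma adjusted p = 8.86e-08), or −2.0 without adult 4. The high level was seen in the subiculum at 6 months and 1 year: other regions lay between 7.33 and 7.79 at 6 months and between 7.24 and 7.98 at 1 year. In adults the subicular mean of 7.35 was within the 7.05 to 7.76 of the others. NTS was at −0.12 in DG and 0.02 in EC, where its signal was at 4.20 to 4.33 at both ages, low in the range of the array. Its difference was −1.80 (SE 0.382, limma adjusted p = 0.0119), and −1.33 without the subicular adult 4 (limma adjusted p = 0.0544). In CA1, which was not part of that test, NTS averaged 7.47 at 6 months and 5.28 in adults.

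**Figure D4:**
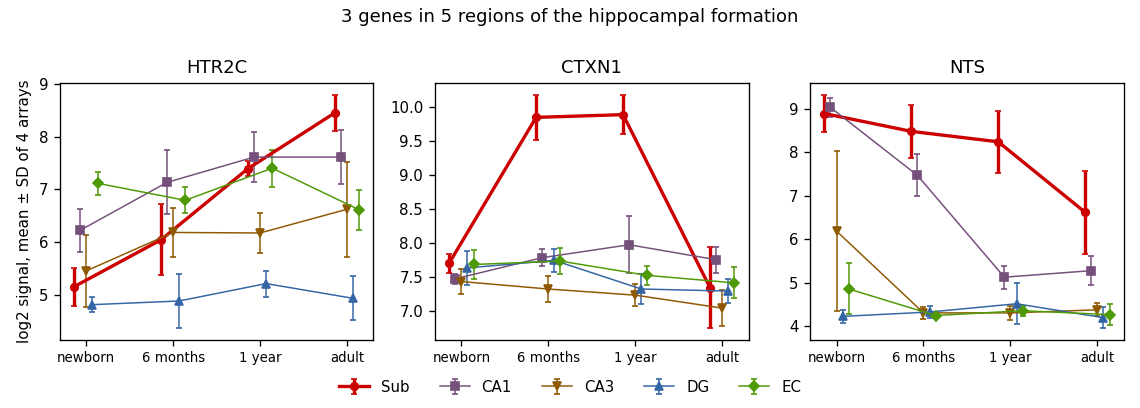
Mean log2 signal (vertical axis) ± SD of 4 arrays for HTR2C, CTXN1 and NTS in the 5 regions at the 4 ages (horizontal axis). The subiculum (thick red line) goes from 6.04 to 8.45 in HTR2C between 6 months and adult, and from 9.85 to 7.35 in CTXN1, which is between 7.05 and 7.98 in the other regions at all 4 ages.

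Other genes with a more positive change in the subiculum than in DG and EC were MALAT1, CDC42BPA, AP3D1 and RSF1. MALAT1, a long nuclear RNA, had the largest of the called differences, 4.31 (SE 0.92, limma adjusted p = 0.0123). Within the subiculum it was at 2.13 and was not called (limma adjusted p = 0.105): it read 8.42, 9.08, 6.24 and 7.94 at 6 months and 10.51, 10.37, 8.77 and 10.54 in adults, with overlap. In DG it was at −3.11 and in EC at −1.25, neither called. The difference lost its call when number 11 or 12 was left out in all 3 regions (limma adjusted p up to 0.0788). The 11 other probe sets of MALAT1 were between −0.092 and 0.50 in the subiculum.

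CDC42BPA differed by 1.59 (limma adjusted p = 0.0247) and RSF1 by 1.22 (limma adjusted p = 0.0181). Without the subicular adult 4 they were at 1.35 (limma adjusted p = 0.0883) and 1.01 (limma adjusted p = 0.0737). AP3D1, a subunit of the AP-3 vesicle coat, differed by 1.24 (limma adjusted p = 0.0181). It was at 0.69 in the subiculum, where it was not called, and fell by 0.97 in DG (limma adjusted p = 0.0103). Its difference lost the call when number 9, 11 or 12 was left out in all 3 regions (limma adjusted p up to 0.0928).

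More negative in the subiculum were also MAG (−1.21, limma adjusted p = 0.0457), NCDN (−1.17, limma adjusted p = 0.0185), ARPP21 (−1.16, limma adjusted p = 0.0185), H1-10 (−1.13, limma adjusted p = 0.029), GUK1 (−0.92, limma adjusted p = 0.0119) and KCNC4 (−0.85, limma adjusted p = 0.00775). NCDN, neurochondrin, fell by 1.04 in the subiculum (limma adjusted p = 0.03) and was at −0.10 in DG and 0.36 in EC. ARPP21, a phosphoprotein of neurons that respond to cyclic AMP, was at −0.82 in the subiculum without a call and rose by 0.65 in DG (limma adjusted p = 0.00746). Without the subicular adult 4 MAG, NCDN, H1-10 and GUK1 no longer passed (limma adjusted p = 0.161, 0.0836, 0.12 and 0.0501), while ARPP21 and KCNC4 did (limma adjusted p = 0.0336 each). ARPP21 lost its call when number 1, 4, 9 or 12 was left out in all 3 regions (limma adjusted p up to 0.142).

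**Figure D5:**
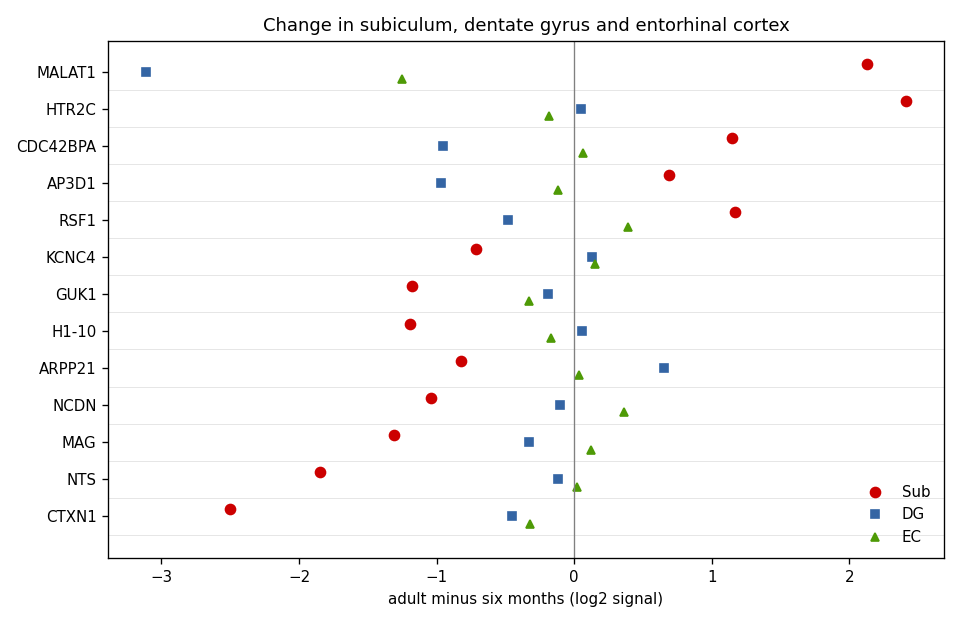
Change from 6 months to adult (log2 signal, horizontal axis) in the subiculum (circles), DG (squares) and EC (triangles) for 13 genes whose subicular change differed from the mean of the other 2 regions. HTR2C and CTXN1 are near 0 in DG and EC or up to −0.45, against 2.41 and −2.5 in the subiculum, and MALAT1 has opposite signs.

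Many of the other subicular changes were seen in DG and EC too, and their difference was not called. In the same ages 837 genes were called in DG (4.23%) and 293 in EC (1.48%). SPP1 rose by 1.05 in DG and 1.18 in EC (limma adjusted p = 0.012 and 0.00422), beside 1.6 in the subiculum, and the difference was 0.49 (limma adjusted p = 0.431). VAMP1, NQO1, MYLK, PLEKHA2, CLDND1 and FKBP5 rose in all 3 regions, with differences from −0.23 to 0.49. TTC9B and NREP fell in all 3. TNC fell by 1.46 in DG (limma adjusted p = 2.7e-06), SOX4 fell by 1.98 and SOX11 fell by 2.18 (limma adjusted p = 2.7e-06 each), while EC was at −0.70, −0.54 and −0.21 without calls. A difference that was not called does not show that the regions changed alike.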

How the data were processed

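The authors deposited log2 values for 54675 probe sets of a human Affymetrix design on 80 arrays. Per the labels' protocols, Trizol RNA was labelled with biotin in a two-cycle protocol, which reads the 3' end. How probes were summarised and arrays scaled is not given in the sources used. Array quartiles spread over 0.12, 0.106 and 0.12, so the arrays were quantile normalized together (limma 3.58.1, R 4.3.3). Control ratios came from the deposited values. Of 41091 probe sets with 1 symbol, the brightest over all arrays stood for its gene (19775 genes, none filtered).

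The main limma fit (lmFit, eBayes) held the 16 subicular arrays, and the difference from DG and EC 48 arrays, with Benjamini-Hochberg adjustment over all genes. No 2 subicular arrays were identical (highest correlation 0.995), and 4 arrays per group limit the precision. The members and 41 gene lists (784 of 871 genes measured) were chosen with earlier results of these data known. Named genes are the 15 largest rises and falls called with and without adult 4 and with the higher mean above 5.98, the median of gene means; the 5 largest differences of each sign; up to 4 list members by p; and all serotonin receptors. Uncharacterised loci were passed over. Microglial and choroid plexus markers, DCX, RFLNB and further genes called without adult 4 were named after their values were seen. In simulated data with 100 genes changed by 0.5 and 100 by 1 log2 among 19775, the main contrast recovered 62 and 94 (10 false calls) and the difference 52 and 92 (4 false calls). For most of the 15 largest rises and 15 largest falls, adults spread more than the 6-month subicular animals. Examples were FABP7, C1QTNF4, CSPP1 and SIPA1L2. The exceptions, where adults spread less, were HTR2C, NQO1, PLEKHA2, TNC and COL3A1. Whether the simulated recoveries and false calls hold under such unequal spread was not tested. Scaling, probe choice, filter, covariate, variance model, weights and arrays were varied. Python 3.11.15 and matplotlib 3.10.9 drew the figures.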

Additional observations from a re-analysis of the deposited data

Results flagged for a closer look

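In 7 of 140 groups of 4 values that were examined, 1 array lay far from the other 3 (a gap to the nearest above Dixon's critical share of the range), and chance gives about 1 in 20. Adult number 4 was that array 4 times. It was high for the GAPDH ratio (2.72), ATP8B1 (7.32) and TFRC (7.80), and low for NTS (5.2). Adult number 3 was low for MALAT1 (8.77). At 6 months number 12 was high for ARC (7.56) and number 9 for SOX11 (7.45).

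For 13 named genes the change in the subiculum differed from that of DG and EC in limma. More positive were MALAT1 (4.31), HTR2C (2.48), CDC42BPA (1.59), AP3D1 (1.24) and RSF1 (1.22). More negative were CTXN1 (−2.11), NTS (−1.80), MAG (−1.21), NCDN (−1.17), ARPP21 (−1.16), H1-10 (−1.13), GUK1 (−0.92) and KCNC4 (−0.85).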

How the results depend on the processing

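The 436 calls between 6 months and adult became 680 with arrays centred on their median, 869 with the GAPDH ratio as covariate, 28 when only the 8 arrays compared set the spread, and 101 to 767 when 1 of those arrays was left out. The 28 and the 436 rest on the same means but not on the same spread, residual degrees of freedom or prior, which were not varied singly. In alternatives chosen after seeing the data, calls without adult 4 were 105 with only the other 7 arrays and 2 with the GAPDH ratio as covariate (SOX4 at −1.58 and BAMBI at −1.66). In that last fit HTR2C was at 2.42 (limma adjusted p = 0.308) and CTXN1 at −2.14 (limma adjusted p = 0.276). The ratio separates the 2 ages there, so they cannot be told apart. Without adult 4 the adult minus 6-month difference was −0.21 for the GAPDH and −0.15 for the actin ratio. The single call between 6 months and 1 year became 0 with centred arrays. The 174 differences from DG and EC became 305 with centred arrays, 85 without the subicular adult 4, and 30 to 187 when a number was left out in all 3 regions. With the replicate block on title numbers 176 differed, of which 40.9% were positive against 55.2% without it. Of the 5 largest differences of each sign MAG (limma adjusted p = 0.0632) and ARPP21 (0.0667) lost their calls under the block. Same-numbered arrays of the regions correlated in their deviations at −0.24 to 0.393 (14 of 16 pairs over 0.1, 10 best matched by their own number), a hint from the data that numbers mark animals, which the labels do not state. The 2 ages of the main comparison share no numbers.

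Uncalled serotonin receptors changed sign in some settings. With array weights HTR1A, HTR1B and HTR1D were at 0.018, −0.014 and −0.0044. With the mean of probe sets HTR3A and HTR4 were at −0.020 and −0.038. Without adult 4 HTR1B was at −0.0072 with deposited values and −0.024 with only 7 arrays. With the covariate as well as without adult 4, HTR1A, HTR1D, HTR2A, HTR2B, HTR5A and HTR6 were at 0.077, −0.43, 0.15, 0.046, −0.071 and −0.15. With 1 array left out the ranges were −0.28 to 0.14 for HTR2A, −0.042 to 0.084 for HTR1F, −0.086 to 0.084 for HTR1A, −0.024 to 0.085 for HTR1B and −0.063 to 0.11 for HTR1D.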

Other observations

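Among the 87 genes called in each of the 8 fits that left out 1 array, several that belong to no list above stand out. They were chosen after their values were seen. CXCL14, a chemokine made by interneurons among other cells, fell from 11.78 to 10.79 (−0.99, limma adjusted p = 0.00875). BZW2, a regulator of translation, fell by 0.77 (limma adjusted p = 0.000149), TP53INP2, of autophagy, by 1.03 (limma adjusted p = 0.000149), and PAK6, a kinase downstream of small GTPases, by 1.06 (limma adjusted p = 0.000706). RTN4R, the Nogo receptor that restrains axon growth, fell by 1.05 (limma adjusted p = 0.00128), and CX3CL1, the neuronal ligand of the microglial receptor CX3CR1, by 0.79 (limma adjusted p = 0.00622). VLDLR, a receptor for reelin, fell by 0.55 (limma adjusted p = 0.00342) and CRHBP, which binds corticotropin-releasing hormone, by 0.69 (limma adjusted p = 0.0117). DBN1, drebrin of dendritic spines, fell by 0.62 (limma adjusted p = 0.00988). The chaperone gene HSPA2 and the chromatin gene JADE2 rose, by 0.50 (limma adjusted p = 0.0123) and 0.79 (limma adjusted p = 0.000189).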
